A study of Mus musculus with 11 samples.

Results

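The genes described here are the 8 acute-phase genes Saa1, Saa2, Saa3, Hp, Lrg1, Orm1, Lcn2 and Slpi, taken by gene symbol, of 29809 genes measured by single-cell RNA sequencing in the mouse colonic mucosa. The mice were in 3 settings. Wild-type (WT) mice of about 2 months drank 3% dextran sodium sulfate (DSS), a polysaccharide that injures the colonic epithelium, for 6 days, and their mucosa was taken either 6, 7, 9, 11 or 12 days after the first day of DSS, or later, after 16, 18, 19 or 23 days. Il10-/- mice, without the cytokine interleukin-10 that restrains inflammation and so prone to spontaneous colitis, drank no DSS, were about 10 months old, and their feces held more lipocalin than normal by the study's own check. Uninjured WT mice of about 2 months had no DSS. Each of these 11 groups was a single library made from a pool of mice, so the 9 DSS libraries gave the only replicated contrast, a trend over days, and the uninjured and Il10-/- libraries were described and not tested. Age and genotype cannot be told apart in the Il10-/- library. The muscle layers had been stripped from the colon and dead cells removed before capture.

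Acute-phase proteins are secreted in large amounts during infection and injury, chiefly by the liver. Interleukin-1, tumour necrosis factor and cytokines of the interleukin-6 family switch their genes on through NF-kB, C/EBP and STAT3 transcription factors. Several are also made locally at barriers such as the gut: serum amyloid A proteins (Saa1, Saa2, Saa3) bind lipids and retinol, haptoglobin (Hp) binds free haemoglobin, Lrg1 modulates TGF-beta signalling in vessels and is stored in neutrophil granules, orosomucoid (Orm1) is a plasma carrier protein, lipocalin-2 (Lcn2) withholds iron from bacteria by binding their siderophores, and Slpi inhibits neutrophil elastase and cathepsin G.

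The 3 serum amyloid A genes lie together on chromosome 7 (GRCm38, the Ensembl name of mm10), Saa3 at chr7:46711998-46715700 on the minus strand, Saa1 at chr7:46740497-46742980 on the minus strand and Saa2 at chr7:46751790-46754313 on the plus strand. Their likeness matters for the counts, because the assay reads transcript ends. The last 90 coding bases of each, stop codon included, are shown 5′ to 3′ from the GRCm38 transcripts, with capitals where a base differs from Saa1. Saa1 is at chr7:46740704-46740793, Saa2 at chr7:46754020-46754109 and Saa3 at chr7:46712126-46712215.
Saa1: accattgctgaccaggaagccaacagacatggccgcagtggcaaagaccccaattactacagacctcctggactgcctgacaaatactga
Saa2: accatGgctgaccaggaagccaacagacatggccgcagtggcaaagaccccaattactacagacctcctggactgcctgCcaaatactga
Saa3: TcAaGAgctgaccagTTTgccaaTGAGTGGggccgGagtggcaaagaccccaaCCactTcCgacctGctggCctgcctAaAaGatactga
Saa2 differed from Saa1 at 2 of these 90 positions and Saa3 at 24. Over the whole coding sequence Saa1 and Saa2 shared 351 of 369 aligned bases (95.1%), and over the last 300 bases of the transcript 92.4%, against 76.6% and 51.6% for Saa1 and Saa3. Reads of Saa1 and Saa2 can therefore be confused, and how the counting split them is not given in the sources used here, so Saa2 counts are uncertain.

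Promoter windows of 300 bases, 250 before to 50 after the start, were taken from RefSeq (GRCm38.p6) for 6 of the 8 genes, all but Hp and Orm1. They were searched on both strands for a C/EBP motif (TTNNGCAA), an NF-kB motif (GGGANNTNCC) and a STAT motif (TTCNNNGAA), chosen as binding patterns of the factors named above. The C/EBP letters were found in 5 of the 6 windows, Lrg1 being the exception, and in 10.8% of all 32851 promoter windows. The Saa1 and Saa2 windows are closely alike and hold the same letters, from -182 and -183, so their matches are not independent. Neither of the other motifs was found in these 6 windows, and they were in 4.01% and 8.30% of all windows for NF-kB and STAT. A match is a description of the letters and not a binding site. The windows of Saa1 (chr7:46742931-46743230, minus strand), Saa3 (chr7:46715627-46715926, minus strand) and Lcn2 (chr2:32387690-32387989, minus strand) are shown because these genes led in 3 different classes of cells, with the C/EBP letters in capitals.
Saa1: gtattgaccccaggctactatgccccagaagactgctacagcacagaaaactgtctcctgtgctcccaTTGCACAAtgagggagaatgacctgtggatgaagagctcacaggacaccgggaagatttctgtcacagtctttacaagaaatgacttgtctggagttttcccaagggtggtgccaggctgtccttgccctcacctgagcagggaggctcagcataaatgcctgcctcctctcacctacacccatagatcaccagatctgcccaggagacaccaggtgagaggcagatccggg
Saa3: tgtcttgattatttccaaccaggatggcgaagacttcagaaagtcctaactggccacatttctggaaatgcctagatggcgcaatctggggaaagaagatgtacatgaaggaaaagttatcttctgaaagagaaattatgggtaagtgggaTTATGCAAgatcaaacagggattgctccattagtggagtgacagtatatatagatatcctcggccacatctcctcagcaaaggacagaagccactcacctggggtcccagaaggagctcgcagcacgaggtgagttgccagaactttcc
Lcn2: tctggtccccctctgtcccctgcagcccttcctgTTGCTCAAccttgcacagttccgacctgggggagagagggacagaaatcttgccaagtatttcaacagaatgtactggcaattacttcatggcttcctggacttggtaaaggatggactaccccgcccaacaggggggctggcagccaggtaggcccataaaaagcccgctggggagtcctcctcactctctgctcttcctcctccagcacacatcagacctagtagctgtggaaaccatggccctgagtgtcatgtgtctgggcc
The match lies at -182 to -175 from the start in Saa1, -99 to -92 in Saa3 and -216 to -209 in Lcn2. The other members lie on chromosome 8 (Hp, chr8:109575128-109579172, minus strand), chromosome 17 (Lrg1, chr17:56119678-56122001, minus strand), chromosome 4 (Orm1, chr4:63344560-63348163, plus strand) and chromosome 2 (Slpi, chr2:164354070-164389095, minus strand).

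The 11 libraries held 55603 cells, 1820 in the uninjured library to 8953 at day 11, and 7963048 to 87491138 counts. The libraries of days 7, 11 and 18 stood apart: they were run fresh as batch C from 3 mice each, against frozen cells of 8 mice each in the other libraries, and their median depth was 4602 to 7845 unique molecules (UMIs) per cell against 2131 to 3736. Of 54976 cell barcodes, 611 occurred in more than 1 library. The authors' annotation put the cells into 28 types, joined here into 16 classes. Marker lists were highest in their own class, except the columnar epithelial list, which was higher in tuft cells, and the dendritic list. No cell of the uninjured library was annotated as a neutrophil.

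Free RNA in the droplets adds counts of abundant genes to every cell, so each level was set against the T and B cells (lymphocytes) of the same library, which are not known as a main source of these proteins. Levels are UMI counts per 1000 cells unless CPM, which scales each gene by all counts of the class, are named, and intervals and floors cover counting error only. Cells with at least 2 UMIs of the neutrophil genes Csf3r, Cxcr2, Retnlg and Mmp9 in sum were common outside the neutrophil class in the early DSS libraries. They made up 21.5, 22.5, 46.3, 35.9 and 41.5% of columnar epithelial cells on days 6, 7, 9, 11 and 12, and 7.43% in the Il10-/- library, 5.67% on day 18 and at most 1.25% on days 16, 19 and 23 and in the uninjured library. Among T cells they reached 19.6% and among fibroblasts 35%. Values without these cells stand beside many of the levels and slopes below.

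Across 64 pairs of a member and a class (8 genes in 8 classes), 36 were above the lymphocytes of the same libraries by an exact two-sided sign-flip test over libraries with Benjamini-Hochberg adjustment over the 64 pairs, and 0 were below (38 pairs had an unadjusted p under 0.05). With 11 libraries the smallest p this test can give is 0.000977, with 10 it is 0.00195, with 9 it is 0.00391 and with 8 it is 0.00781. Of the 36, 22 were also above in CPM, and these 22 were 3 in columnar epithelium, 4 in fibroblasts, 5 in monocytes or macrophages, 6 in neutrophils, 1 in blood endothelium, 2 in lymphatic endothelium and 1 in plasma cells. In CPM 7 of the 64 pairs were below lymphocytes: Hp, Lcn2, Saa1 and Saa3 of plasma cells, and Saa1 of fibroblasts, lymphatic endothelium and monocytes or macrophages. Neutrophils had 5 of the 8 members above lymphocytes in every library, against 8.08% of all genes. The same count was 6 of 8 in columnar epithelium (50.4% of all genes), 5 of 8 in fibroblasts (50%), 4 of 8 in monocytes or macrophages (32.4%), 2 of 8 in plasma cells (32.4%), 2 of 8 in lymphatic endothelium (17.6%), 1 of 8 in blood endothelium (22.9%) and 0 of 8 in myofibroblasts (24.4%).

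**Figure D1:**
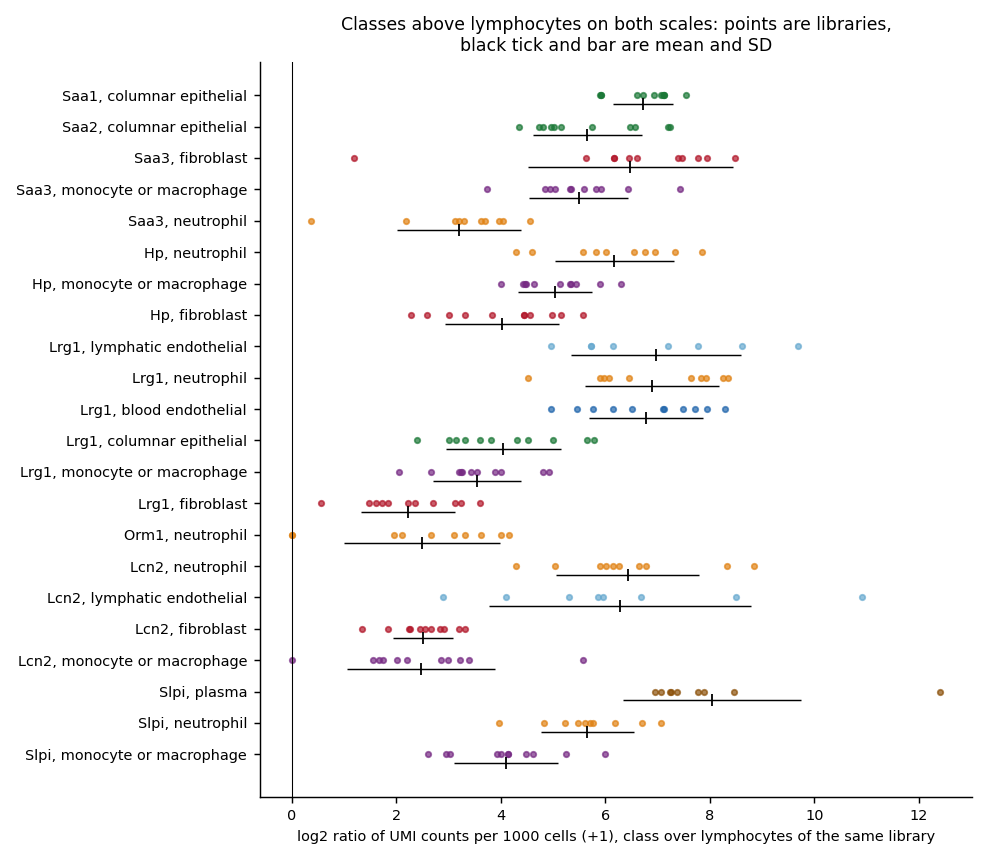
Levels of the acute-phase genes above lymphocytes of the same library, for the 22 pairs called on both scales; the horizontal axis is log2 of the class level over the lymphocyte level (counts per 1000 cells, 1 added), points are libraries and the black tick and bar are the mean and SD. The means run from 2.22 for Lrg1 in fibroblasts to 8.05 for Slpi in plasma cells.

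Saa1 was a transcript of the columnar epithelium, that is the absorptive, goblet and crypt cells as a single class, in every library. Columnar cells held 90.6 to 97.3% of all Saa1 counts of a library. Per 1000 columnar cells, Saa1 was 42985 in the Il10-/- library, 20316 in the uninjured library, 39292 at day 6, 272493 at day 7, 56213 at day 9, 52503 at day 11, 44866 at day 12, 30028 at day 16, 41329.9 at day 18, 32923 at day 19 and 32390.1 at day 23. The day 7 library, of the deeper batch C, stood above all others, and the lowest value was that of uninjured mucosa, where the gene was already abundant. In lymphocytes the level was 223 to 2245, highest on day 7 as well. The columnar excess averaged 6.72 ± 0.58 log2 (SD, n = 11; exact sign-flip test, p = 0.000977, adjusted p = 0.00391), and all 11 libraries were higher.

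The authors named the Car4/Ly6g colonocytes after the carbonic anhydrase gene Car4 and the surface protein gene Ly6g. Within the columnar cells, these colonocytes were highest in all 11 libraries among types with at least 20 cells. Their Saa1 level was 105427 in the Il10-/- library, 67222 in the uninjured library, 104782 at day 6, 458521 at day 7, 190103 at day 9, 189285 at day 11, 106573 at day 12, 76125 at day 16, 101533 at day 18, 83409 at day 19 and 86708 at day 23. The Crypt-2 cells were at 269956 at day 7, against 3604 in the uninjured library, and goblet cells, the mucus makers, were at 163741 at day 7. The Crypt-1 cells held 633 to 17909, below the other columnar cells in all 9 libraries that had at least 20 of them. The types were made from the same counts, so these differences between types were not tested. In the other 7 classes compared, the ranges of Saa1 over libraries overlapped those of lymphocytes (499 to 2012 in plasma cells, the next highest), and each neighbour in the order below columnar cells differed by less than 1 SD over libraries.

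Fibroblasts, monocytes or macrophages and plasma cells passed the test for Saa1 per cell, by 0.74 ± 0.49 log2, 0.61 ± 0.39 log2 and 1.55 ± 0.31 log2 (SD, n = 11, 11 and 9). In CPM the same 3 classes were below lymphocytes, by -0.50, -0.47 and -1.04. Their Saa1 is thus not told apart from droplet background here. In 20 enteroendocrine cells of day 7, 56.7% of the 129550 counts per 1000 cells came from 1 cell.

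Saa2 followed the same cells at a far lower level. Per 1000 columnar cells it was 118 in the Il10-/- library, 52.3 in the uninjured library, 94.0 at day 6, 906 at day 7, 114 at day 9, 151 at day 11, 87.4 at day 12, 70.4 at day 16, 145 at day 18, 91.1 at day 19 and 101 at day 23. In columnar cells of each library Saa2 counts were 0.195 to 0.35% of Saa1 counts, a ratio of 3' end counts with no length scaling, so the pair kept nearly one ratio. Lymphocytes held 0 to 5.17 per 1000 cells, and the columnar excess was 5.66 ± 1.04 log2 (SD, n = 11; exact sign-flip test, p = 0.000977, adjusted p = 0.00391). Myofibroblasts reached 400 per 1000 cells on day 6, a library with 30 such cells, with 66.7% of the 12 UMIs in 1 cell.

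Saa3, the serum amyloid A that mice make outside the liver, belonged to the stroma and the mononuclear phagocytes and not to the epithelium. Fibroblasts were the largest source of its counts in 7 libraries and monocytes or macrophages in 3, while the uninjured library had few counts at all. Per 1000 fibroblasts the level was 3988 in the Il10-/- library, 1.29 in the uninjured library, 33531 at day 6, 46272 at day 7, 44365 at day 9, 55506 at day 11, 18595 at day 12, 2776 at day 16, 4136 at day 18, 4311 at day 19 and 1534 at day 23. The 4 libraries of days 6 to 11 were highest, days 16 to 23 were all below day 12, and the uninjured value rests on 1 UMI. Lymphocytes held 21.5 in the Il10-/- library, 0 in the uninjured library, 345 at day 6, 186 at day 7, 506 at day 9, 254 at day 11, 110.0 at day 12, 37.5 at day 16, 10.6 at day 18, 86.2 at day 19 and 20.5 at day 23. The fibroblast excess was 6.48 ± 1.96 log2 (SD, n = 11; exact sign-flip test, p = 0.000977, adjusted p = 0.00391), with all 11 libraries higher.

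Monocytes or macrophages, which take up debris and present antigen, held Saa3 at 1271 in the Il10-/- library, 29.9 in the uninjured library, 4589 at day 6, 32438 at day 7, 20458 at day 9, 10206 at day 11, 3615 at day 12, 2315 at day 16, 333 at day 18, 4173 at day 19 and 1852 at day 23. The dip on day 18 was below every other DSS library. Their excess over lymphocytes was 5.49 ± 0.95 log2 (SD, n = 11; exact sign-flip test, p = 0.000977, adjusted p = 0.00391). Fibroblasts and these phagocytes did not differ by more than their spread, with fibroblasts higher in 9 of 11 libraries by 0.99 ± 2.02 on the log2 scale. Neutrophils held 206 to 3301 and were above lymphocytes by 3.20 ± 1.19 log2 (SD, n = 10; exact sign-flip test, p = 0.00195, adjusted p = 0.005). In myofibroblasts the highest value was 32323 at day 9, with 94.9% of the counts in 1 of 31 cells. Myofibroblasts (3.46 ± 4.08 log2) and plasma cells (1.16 ± 0.88 log2) passed the test per cell, and not without the cells that carried neutrophil markers, at 3.45 and 1.05 log2 (exact sign-flip test, adjusted p = 0.0625 and 0.0571). In CPM myofibroblasts were not called and plasma cells were below lymphocytes. Columnar cells reached 1823 per 1000 cells and passed the test per cell (1.83 ± 0.71 log2), but not in CPM (-0.18). On day 11 they held 1823, and 409 without the cells that carried neutrophil markers.

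Hp, the haemoglobin scavenger, was a myeloid and fibroblast transcript. Per 1000 neutrophils it was 2765 at day 6, 14977 at day 7, 2981 at day 9, 9000 at day 11, 3657 at day 12, 1769 at day 16, 5849.9 at day 18, 2686 at day 19 and 4180.3 at day 23, and 6744 in the Il10-/- library. Monocytes or macrophages held 1029 in the Il10-/- library, 14.9 in the uninjured library, 1516 at day 6, 8249 at day 7, 3369 at day 9, 8208 at day 11, 1643 at day 12, 1363 at day 16, 1905 at day 18, 1174 at day 19 and 1414 at day 23. Days 7 and 11 were high in neutrophils, both of the deeper batch C. Both classes were above lymphocytes, which held 0 to 371, by 6.17 ± 1.14 log2 in neutrophils (SD, n = 10; exact sign-flip test, p = 0.00195, adjusted p = 0.005) and 5.04 ± 0.70 log2 in monocytes or macrophages (SD, n = 11; exact sign-flip test, p = 0.000977, adjusted p = 0.00391).

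In fibroblasts Hp was 1482 in the Il10-/- library, 3.86 in the uninjured library, 346 at day 6, 834 at day 7, 2141 at day 9, 3668 at day 11, 1821 at day 12, 684 at day 16, 1035 at day 18, 904 at day 19 and 859.7 at day 23. The uninjured value was far below all others and rests on 3 UMIs, and no steady order over days was seen. The excess over lymphocytes was 4.01 ± 1.09 log2 (SD, n = 11; exact sign-flip test, p = 0.000977, adjusted p = 0.00391). Among the fibroblasts, the Pi16/Pcolce2 type, whose name genes mark adventitial fibroblasts, held 424 to 7401 in the DSS libraries, against 83.3 to 1078 in the Adamdec1/Bmp4 type, and the first was higher than the other fibroblasts in all 11 libraries. Columnar cells held 2026 at day 11 and 904 at day 7, and 150.2 and 90.5 without the cells that carried neutrophil markers. They passed the test per cell (1.80 ± 0.66 log2) and not in CPM (-0.12). High values of Apold1 myofibroblasts were set by single cells: of 11278 at day 11 and 5865 at day 18, 68.0 and 97.7% of the counts were in 1 cell.

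Lrg1 had the widest set of sources: endothelium of both kinds, neutrophils and the crypt epithelium. Per 1000 blood endothelial cells it was 1593 in the Il10-/- library, 209 in the uninjured library, 2963 at day 6, 6868 at day 7, 4273 at day 9, 6575 at day 11, 1164 at day 12, 2321 at day 16, 3109 at day 18, 1685 at day 19 and 1382 at day 23. Lymphatic endothelial cells held 1189 in the Il10-/- library, 821 in the uninjured library, 3673 at day 6, 9022 at day 7, 6546 at day 11, 1391 at day 12, 2773 at day 18 and 1476 at day 23. Every DSS value of blood endothelium was above the uninjured one. The excess over lymphocytes (0 to 209.7) was 6.78 ± 1.09 log2 in blood endothelium (SD, n = 11; exact sign-flip test, p = 0.000977, adjusted p = 0.00391) and 6.98 ± 1.63 log2 in lymphatic endothelium (SD, n = 8; exact sign-flip test, p = 0.00781, adjusted p = 0.0156). The Selp/Sele endothelial cells, named after the selectins that slow leukocytes on venules, held 16822, 17029.9 and 10250 on days 7, 11 and 18, the libraries with at least 20 such cells, against 3093, 2224 and 729 in the other blood endothelial cells.

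Neutrophils held Lrg1 at 2153 at day 6, 8549.9 at day 7, 1817 at day 9, 4858 at day 11, 2307 at day 12, 1591 at day 16, 3858 at day 18, 1859 at day 19 and 3295 at day 23, and 5490.1 in the Il10-/- library, and gave 52.7 to 83.7% of the counts of the 10 libraries that held them. They exceeded lymphocytes by 6.89 ± 1.28 log2 (SD, n = 10; exact sign-flip test, p = 0.00195, adjusted p = 0.005), and in the order neutrophils, blood endothelium, lymphatic endothelium each differed from the next by less than 1 SD over libraries. Columnar cells held 1231 in the Il10-/- library, 4.24 in the uninjured library, 299 at day 6, 1777 at day 7, 1519 at day 9, 1859 at day 11, 525 at day 12, 201 at day 16, 289.9 at day 18, 112 at day 19 and 99.5 at day 23. Their excess was 4.05 ± 1.10 log2 (SD, n = 11; exact sign-flip test, p = 0.000977, adjusted p = 0.00391). On days 7 and 11 the columnar level was 795 and 365 without the cells that carried neutrophil markers. The Crypt-1 cells were higher than the other columnar cells in all 9 libraries that held at least 20 of them, with 10773 at day 7 and 5750 in the Il10-/- library. That is the opposite end of the columnar types from Saa1. Fibroblasts (2.22 ± 0.90 log2) and monocytes or macrophages (3.54 ± 0.85 log2) also passed on both scales.

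Orm1, a liver gene, was close to absent from the mucosa, with 396 UMIs in all 55603 cells. Neutrophils held 15.1 at day 6, 114 at day 7, 8.89 at day 9, 16.7 at day 11, 9.48 at day 12, 0 at day 16, 3.29 at day 18, 7.6 at day 19 and 0 at day 23, and 11.3 in the Il10-/- library. Day 7, of the deeper batch C, alone stood apart. They exceeded lymphocytes by 2.49 ± 1.5 log2, in 8 of 10 libraries (SD, n = 10; exact sign-flip test, p = 0.00781, adjusted p = 0.0156). Without the batch C libraries the excess was 2.28 log2, and the 5 libraries that then differed from their lymphocytes could not reach a call (exact sign-flip test, p = 0.0625, adjusted p = 0.114). The T cells of day 7 held 21.6 from 9 UMIs of 1 cell, and 0 without the cells that carried neutrophil markers. Plasma cells were the largest source of Orm1 counts in 3 libraries and held 28.7 at day 18 and 24.6 at day 23, from 7 and 5 UMIs, against 3.29 and 0 in neutrophils of the same days. The other classes set against lymphocytes held less than that, and 20 enteroendocrine cells of day 7 held 2 UMIs.

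Lcn2, the siderophore binder, was a neutrophil gene in inflamed mucosa and a lymphatic endothelial gene throughout. Per 1000 neutrophils it was 5576 at day 6, 52573 at day 7, 10015 at day 9, 24384 at day 11, 5231 at day 12, 1556 at day 16, 5699 at day 18, 2618 at day 19 and 1783 at day 23, and 17065 in the Il10-/- library. Neutrophils gave 66.9 to 92.2% of the Lcn2 counts of the 10 libraries that held them. Days 7 and 11, both of the deeper batch C, were highest and day 16 lowest. The excess over lymphocytes was 6.43 ± 1.36 log2 (SD, n = 10; exact sign-flip test, p = 0.00195, adjusted p = 0.005).

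Lymphatic endothelial cells, which line the lymph vessels, held Lcn2 at 2144 in the Il10-/- library, 1923 in the uninjured library, 5796 at day 6, 32041 at day 7, 9269 at day 11, 1261 at day 12, 5289 at day 18 and 2000 at day 23. In the uninjured library these 39 cells gave 91.5% of all Lcn2 counts, while its 91 lymphocytes held 0, which allows up to 33.0 per 1000 cells. Their excess was 6.27 ± 2.51 log2 (SD, n = 8; exact sign-flip test, p = 0.00781, adjusted p = 0.0156), and all 8 libraries were higher. The level on days 7 and 11 was nearly the same without the cells that carried neutrophil markers (31099.7 and 9327). Blood endothelium, the closest relative, had a median of 125 per 1000 cells, with a range over libraries of 0 to 9330. In the Il10-/- library its 54 cells held 148 Lcn2 counts, against 193 in 90 lymphatic endothelial cells, so the lymphatic level was not the higher in every library.

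Fibroblasts held Lcn2 at 278 in the Il10-/- library, 2.57 in the uninjured library, 860.3 at day 6, 4753 at day 7, 1439 at day 9, 3185 at day 11, 405 at day 12, 95.4 at day 16, 329 at day 18, 184 at day 19 and 54.0 at day 23, above lymphocytes by 2.51 ± 0.58 log2 (SD, n = 11; exact sign-flip test, p = 0.000977, adjusted p = 0.00391). Monocytes or macrophages were above by 2.47 ± 1.41 log2 (SD, n = 11; exact sign-flip test, p = 0.00195, adjusted p = 0.005). Columnar cells held 299 in the Il10-/- library, 2.82 in the uninjured library, 188 at day 6, 3629.6 at day 7, 1016 at day 9, 5713 at day 11, 309 at day 12, 12.1 at day 16, 268 at day 18, 55.4 at day 19 and 20.9 at day 23. The high values of days 7 and 11 were 328 and 608 without the cells that carried neutrophil markers, and the columnar excess of 1.72 ± 0.96 log2 per cell was not found in CPM (-0.18). What share of the columnar Lcn2 came with the neutrophil genes was not tested. Even lymphocytes were uneven: on day 11 T cells held 2741 and B cells 238, and without the cells that carried neutrophil markers T cells held 316 and B cells 226.

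Slpi, the elastase inhibitor, was highest per cell in plasma cells, the antibody-secreting B lineage, and in neutrophils. Per 1000 plasma cells it was 14659.5 in the Il10-/- library, 5432 in the uninjured library, 31714 at day 6, 105792 at day 9, 26354 at day 12, 42764 at day 16, 29299 at day 18, 31912 at day 19 and 35679.8 at day 23. Days 7 and 11 had under 20 plasma cells. The day 9 value rests on 24 cells, with 45.6% of the counts in 1 cell. Cells with neutrophil markers were 66.7% of the plasma cells of day 9 and 46.2% of those of day 12, and without them the level was 29125 in the 8 cells left at day 9 and 34429 at day 12. B cells of the same lineage held 0 to 458. The plasma cell excess over lymphocytes was 8.05 ± 1.70 log2 (SD, n = 9; exact sign-flip test, p = 0.00391, adjusted p = 0.00926), the largest of the 36 pairs per cell. It was 8.30 without the cells that carried neutrophil markers. The highest library value, 12.4, was that of the uninjured library, whose 91 lymphocytes held 0 Slpi UMIs. In CPM the excess was 5.38 log2 in plasma cells and 5.57 log2 in neutrophils, so the order of the 2 classes holds per cell only.

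Neutrophils held Slpi at 9437 at day 6, 20745 at day 7, 18219 at day 9, 27697 at day 11, 11131 at day 12, 7271 at day 16, 10729 at day 18, 9715 at day 19 and 10484 at day 23, and 12854 in the Il10-/- library. A Slpi UMI was seen in 86.6 to 95.9% of neutrophils, at median depths of 1361 to 6260.5 UMIs, against 7.13 to 28.8% of B cells of the same libraries, at 1047 to 3436 UMIs. At 1000 UMIs per cell, with shallower cells left out, these shares were 75.2 to 93.7% of 211 to 3964 neutrophils a library and 4.26 to 18.3% of 31 to 878 B cells. The neutrophil excess was 5.65 ± 0.89 log2 (SD, n = 10; exact sign-flip test, p = 0.00195, adjusted p = 0.005). Per cell, plasma cells exceeded neutrophils in all 8 libraries that held both.

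Monocytes or macrophages held Slpi at 776 in the Il10-/- library, 14.9 in the uninjured library, 5186 at day 6, 14469.6 at day 7, 9793 at day 9, 10901 at day 11, 3739 at day 12, 3402 at day 16, 1679 at day 18, 3009 at day 19 and 6390.0 at day 23, above lymphocytes by 4.10 ± 1.0 log2 (SD, n = 11; exact sign-flip test, p = 0.000977, adjusted p = 0.00391). In the columnar epithelium goblet cells were above the other types together in 7 of 8 libraries, the Il10-/- library being the exception, with 482 in the Il10-/- library, 222 in the uninjured library, 159490 at day 7, 31129 at day 11, 2735 at day 16, 19812 at day 18, 1021 at day 19 and 1603 at day 23. The libraries of days 7, 11 and 18, all batch C, held the 3 highest goblet values. The columnar class as a whole was above lymphocytes per cell by 3.13 ± 1.37 log2 (SD, n = 11; exact sign-flip test, p = 0.000977, adjusted p = 0.00391), and by 1.04 in CPM, where it was not called (exact sign-flip test, adjusted p = 0.0833). On day 7 the columnar level was 17453, and 11283 without the cells that carried neutrophil markers.

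**Figure D2:**
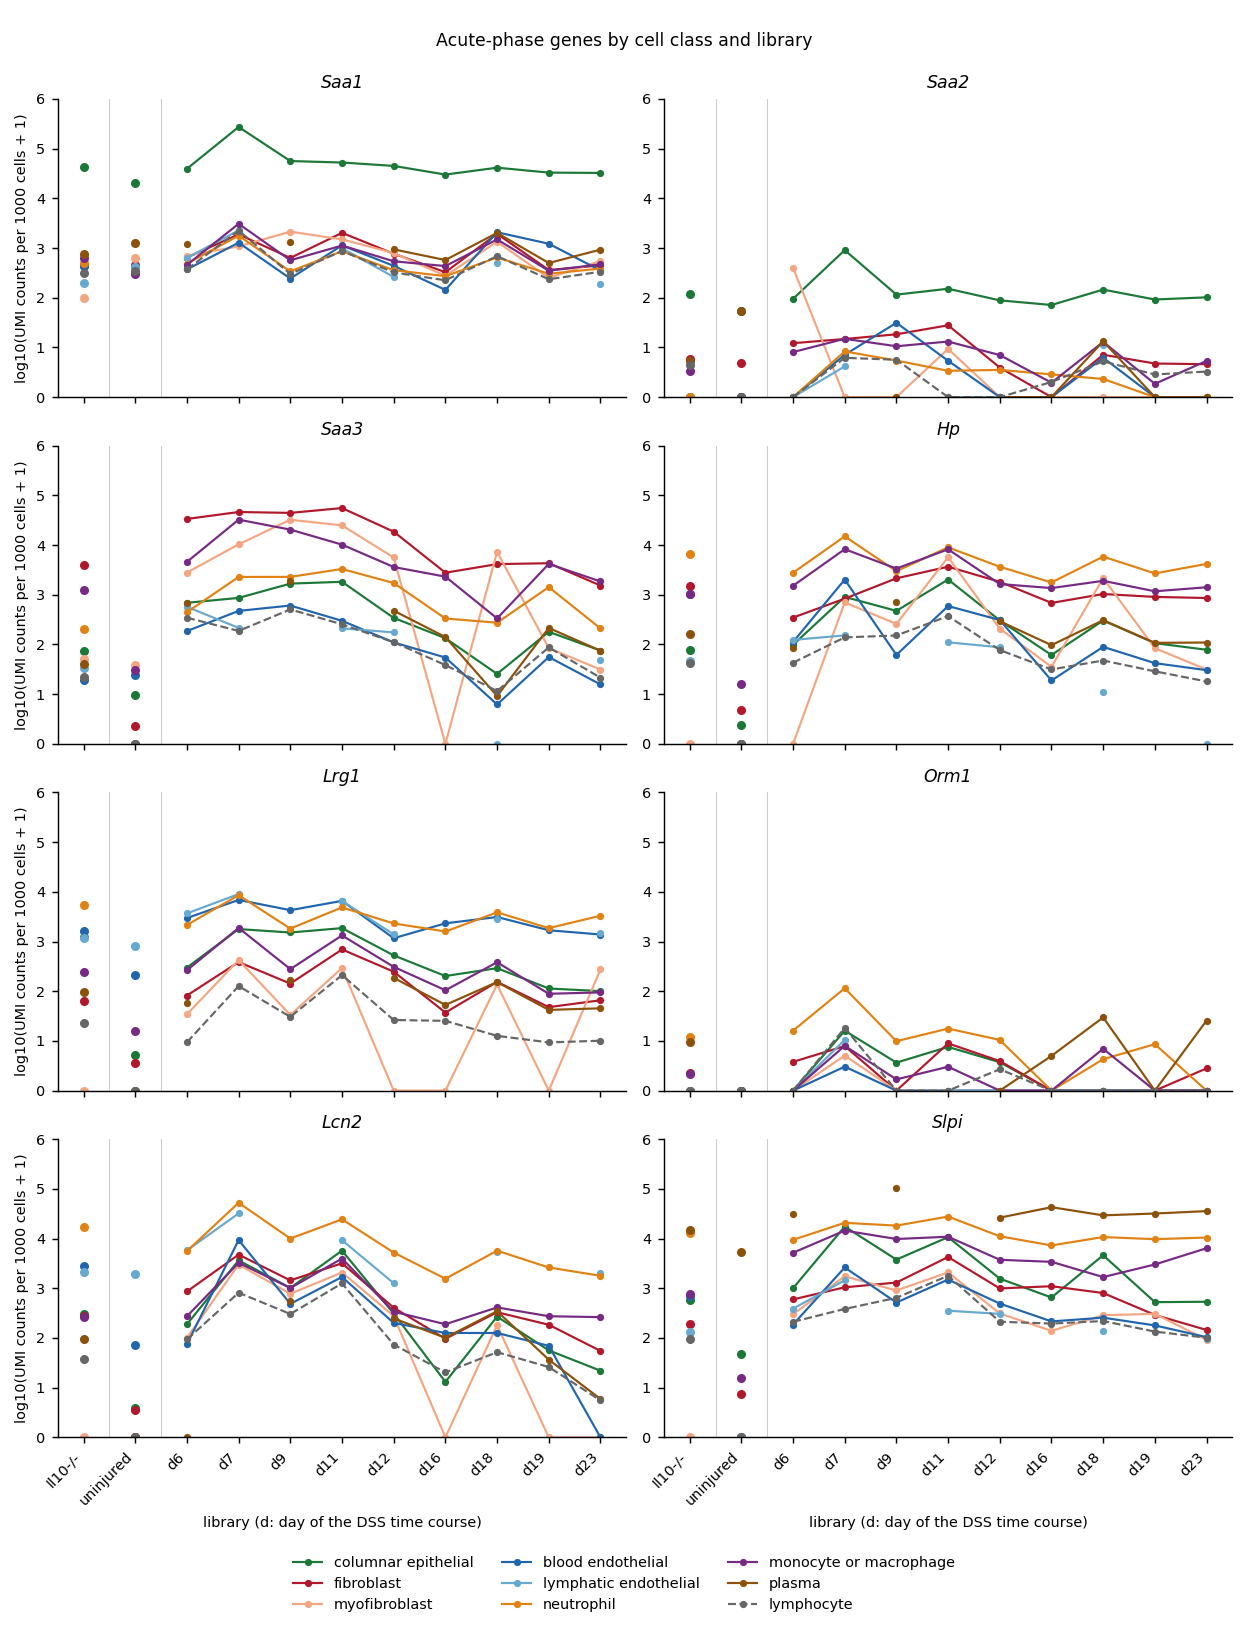
Each acute-phase gene by library, as log10 of UMI counts per 1000 cells with 1 added; colours are classes of cells, the dashed line is lymphocytes, and lines join the DSS days. Saa1 in columnar cells peaks at 272493 at day 7, and Saa3 in fibroblasts is at most 4311 from day 16 on.

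**Figure D3:**
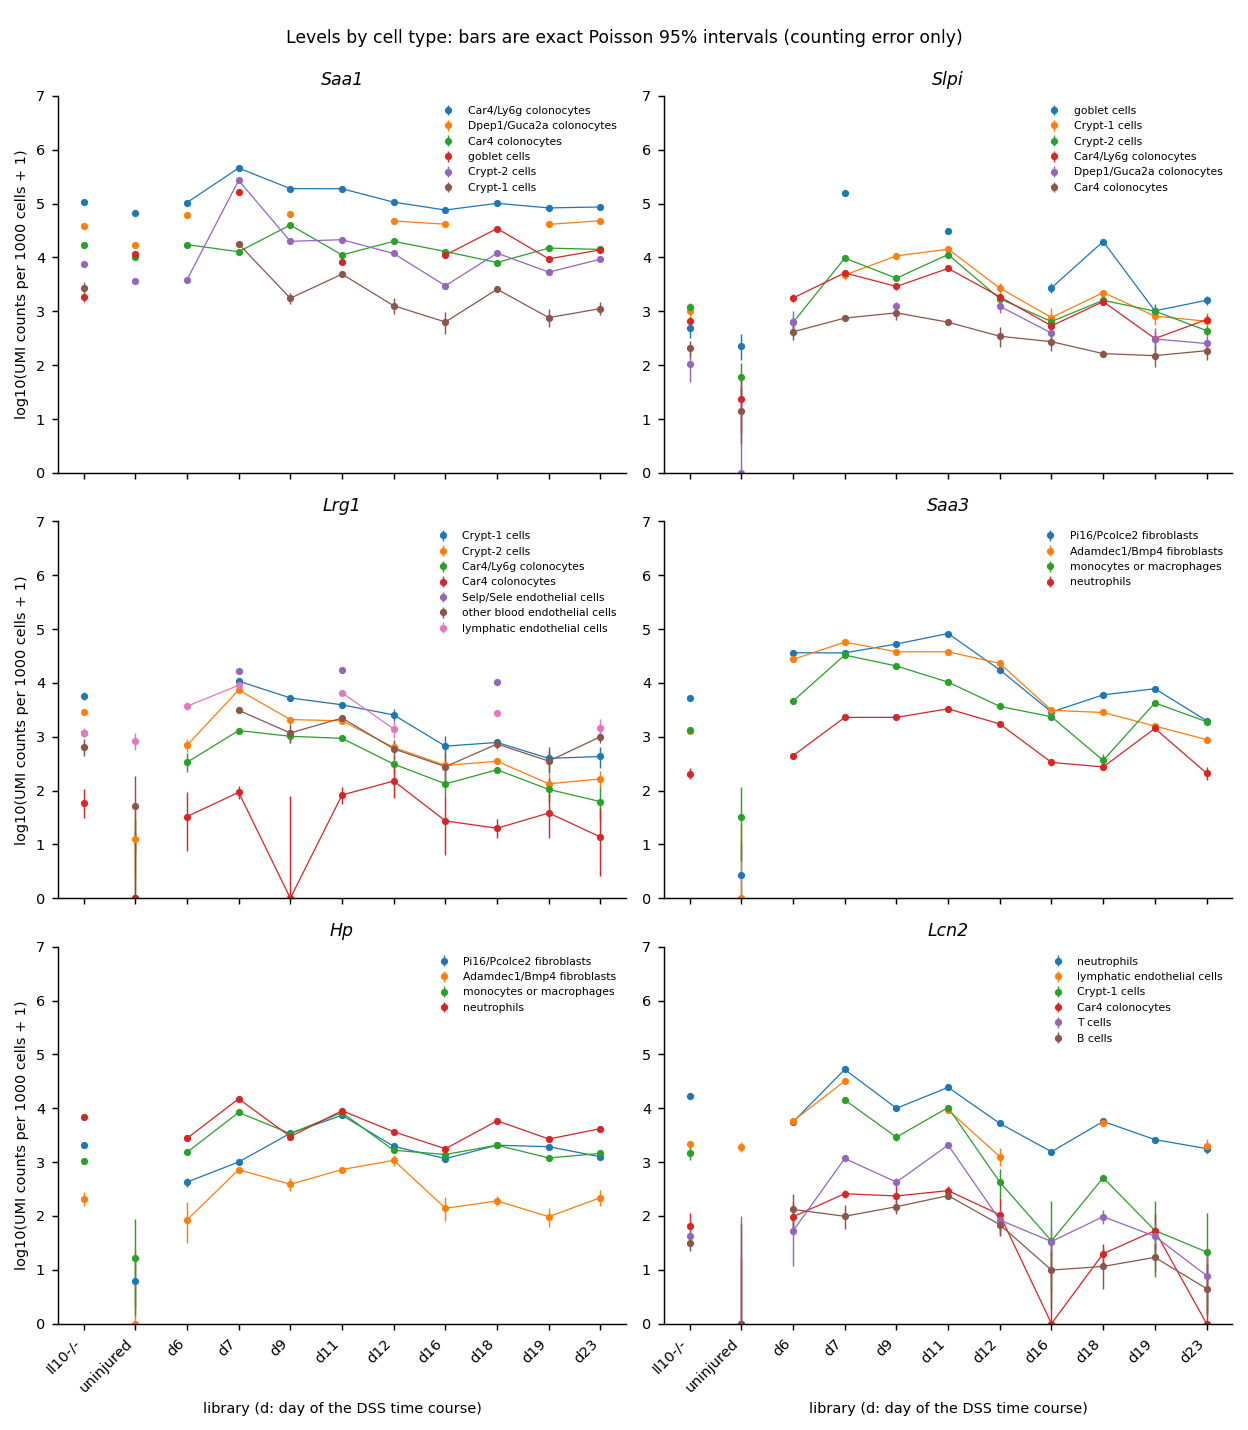
Levels of 6 acute-phase genes in the authors' types by library, as log10 of UMI counts per 1000 cells with 1 added; bars are exact Poisson 95% intervals. Car4/Ly6g colonocytes hold the most Saa1 (67222 to 458521) and Crypt-1 cells lie far below (633 to 17909).

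DSS mucosa was then set against the uninjured library in CPM, as single libraries with no test (1 against 9 libraries cannot give a two-sided p under 0.2), with 95% exact Poisson intervals of the ratio. Of 53 pairs with enough counts, 35 were above the uninjured library in every DSS library. Columnar cells had 5 of 8 members in that state (20.8% of all genes), fibroblasts 5 of 8 (16.9%), monocytes or macrophages 7 of 7 (32.8%), blood endothelium 3 of 6 (13.3%), plasma cells 4 of 6 (20.1%, over 7 DSS libraries) and myofibroblasts 1 of 6 (10.2%). T cells, with 6 of 6 (25.3%), and B cells, with 4 of 6 (19.9%), were in that state too, and the uninjured library held only 38 and 53 of them. A median at least 4-fold the uninjured value was reached by 5 of 8 members in columnar cells (3.51% of all genes), 5 of 8 in fibroblasts (5.99%) and 5 of 7 in monocytes or macrophages (2.19%). It was reached by 1 of 6 in blood endothelium (1.49%), 1 of 6 in myofibroblasts (1.55%), 1 of 6 in plasma cells (1.44%) and 0 in T cells (0.538%) and B cells (0.482%). The columnar 5 were Saa3, Hp, Lrg1, Lcn2 and Slpi, of which only Lrg1 was called above lymphocytes in CPM. In T and B cells only Saa1 had uninjured UMIs. The other ratios there were lower bounds, as 1.82 and 2.79 for Slpi, or could not be given, so the 0 says little about them.

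Saa1 of columnar cells differed little in the median: 3995 CPM in DSS libraries against 3328 CPM in the uninjured library, a ratio of 1.2 (1.17 to 1.23), with 8 of 9 DSS libraries above and the highest at 18406 CPM on day 7. Slpi of columnar cells had a median of 183 CPM in DSS libraries against 7.63 CPM in the uninjured library, a ratio of 24.0 (16.9 to 35.2), and Lrg1 one of 65.4 (21.7 to 323). In fibroblasts Saa3 had a median of 3883 CPM in DSS libraries against 0.299 CPM in the uninjured library, where the uninjured value is 1 UMI, and Lcn2 a ratio of 149 (40.6 to 1245). In monocytes or macrophages Slpi had a ratio of 305 (54.6 to 12035) and Lcn2 was at least 8.39-fold higher, the uninjured class having no Lcn2 UMI. Lrg1 of blood endothelium had a ratio of 7.2 (3.68 to 16.1), and Slpi of plasma cells one of 6.63 (5.77 to 7.67). In CPM the members thus ranged from a gene that was already near its median DSS level in uninjured epithelium, Saa1, to genes close to 0 there. Per 1000 columnar cells the uninjured Saa1 value, 20316, was the lowest of the 11 libraries, so the scales differ on this.

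The Il10-/- library was at least 4-fold the uninjured one for 5 of 7 members with at least 20 counts in columnar cells (4.08% of all genes), 5 of 6 in fibroblasts (2.81%), 5 of 6 in monocytes or macrophages (2.11%) and 4 of 5 in blood endothelium (3.13%), and for 0 of 5 in plasma cells (2.02%), 0 of 6 in T cells (0.844%) and 0 of 6 in B cells (0.491%). It was above all DSS libraries in 2 of 53 pairs, a state held by 4.41% of all genes in columnar cells, 9.54% in fibroblasts, 6.02% in monocytes or macrophages, 9.21% in blood endothelium, 14.5% in myofibroblasts, 2.77% in plasma cells, 3.74% in T cells and 3.2% in B cells. The first is Lrg1 of columnar cells, at 157 CPM, against at most 140.4 CPM in DSS libraries and 0.694 CPM in the uninjured library. Without the 5% of columnar cells with the most UMIs it was no longer above all of them. Its ratio to the uninjured library was 227 (77.3 to 1101). The other, Hp of blood endothelium, came wholly from 1 of 54 cells, and it is among the 4 of 5 members counted above for that class. Slpi was 9.91 times the uninjured value in columnar cells (6.95 to 14.6) and 2.53 times in plasma cells (2.2 to 2.93). In T and B cells only Saa1 had uninjured UMIs, so the 0 of 6 there says little about the other members. Lcn2, at 82.5 times the uninjured value in columnar cells and 27.2 times in blood endothelium, is among the members counted. The Il10-/- mice had been checked by their fecal lipocalin, so their raised Lcn2 is not an observation independent of that check.

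Over the 9 DSS libraries from day 6 to day 23, every day trend of a member that passed was a fall, tested with edgeR on summed counts with day and the batch C label as terms. Slopes are log2 change per 10 days ± SE. In fibroblasts 2 of 6 members tested fell (2.65% of all genes fell): Saa3 with a slope of -2.80 ± 0.45 (edgeR, adjusted p = 0.0208) and Lcn2 with a slope of -2.62 ± 0.45 (edgeR, adjusted p = 0.0252). In neutrophils 2 of 7 fell (2.03%): Lcn2 with a slope of -1.80 ± 0.27 (edgeR, adjusted p = 0.0124) and Orm1 with a slope of -2.96 ± 0.66 (edgeR, adjusted p = 0.0309). In columnar cells 1 of 7 fell (0.192%), Lrg1 with a slope of -2.22 ± 0.36 (edgeR, adjusted p = 0.0453). In monocytes or macrophages 1 of 6 fell (7.13%), Lrg1 with a slope of -1.67 ± 0.25 (edgeR, adjusted p = 0.00453). In blood endothelium 1 of 6 fell (0.424%), Saa3 with a slope of -2.99 ± 0.53 (edgeR, adjusted p = 0.00828). The Saa3 level of that class was not above lymphocytes, at 0.35 ± 1.56 log2 with 5 of 11 libraries higher (SD, n = 11; exact sign-flip test, adjusted p = 0.725). This fall is thus not told apart from droplet background. In lymphocytes 0 of 6 were called (1.75% of all genes in either direction and 0.804% falling), while 3 had an unadjusted p under 0.05 and DESeq2 called 3.

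Lymphocyte slopes were of like size: Saa3 was at -2.55 ± 0.66 and Lcn2 at -3.24 ± 0.83, adjusted p = 0.141 and 0.139 in edgeR. Cells with neutrophil markers were also common to day 12 and rare later, as given above, and their part in the falls was not tested beyond this. Without them, the slopes were -2.77 ± 0.42 for fibroblast Saa3, -2.34 ± 0.36 for fibroblast Lcn2, -2.48 ± 0.33 for columnar Lrg1 and -1.77 ± 0.24 for Lrg1 of monocytes or macrophages. Blood endothelial Saa3 had too few counts to be tested without them. Within the 6 DSS libraries outside batch C (batch C itself holds 3), the slopes were -2.69 and -2.31 for fibroblast Saa3 and Lcn2, -1.55 for neutrophil Lcn2, -2.38 for blood endothelial Saa3, -2.12 for columnar Lrg1 and -1.52 for Lrg1 of monocytes or macrophages, and neutrophil Orm1 had too few counts to be tested. On these 6 libraries fibroblast Saa3, fibroblast Lcn2 and columnar Lrg1 were no longer called (edgeR, adjusted p = 0.0818, 0.124 and 0.27).

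Several calls were lost when 1 library was left out, while the slopes stayed falls. Columnar Lrg1 lost its call without any 1 of the DSS libraries other than day 6, with slopes of -1.85 to -2.63 over all 9 omissions. Fibroblast Saa3 lost it without day 6, 9, 18 or 23 (slopes of -2.60 to -3.03), and fibroblast Lcn2 without day 7, 9, 18 or 23 (-2.32 to -2.99). Neutrophil Lcn2 lost it without day 23 only (-1.60 to -2.11), and neutrophil Orm1 without day 7, 9, 18 or 23 (-2.01 to -3.77). Lrg1 of monocytes or macrophages and Saa3 of blood endothelium kept their calls whichever library was left out, though blood endothelial Saa3 was not above lymphocytes in level. With no batch term the calls of blood endothelial Saa3, columnar Lrg1 and neutrophil Orm1 were lost at slopes of -2.95, -2.23 and -2.83 (edgeR, adjusted p = 0.0935, 0.0516 and 0.0878). Saa1 and Slpi had no call in any of the 6 classes tested, which did not include plasma cells. Columnar Saa1 was at -0.96 ± 0.46 and columnar Slpi at -1.53 ± 0.32 (edgeR, adjusted p = 0.41 and 0.0867). Columnar Lcn2 at -3.34 ± 0.64 also missed (edgeR, adjusted p = 0.0751).

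A direct test asked whether a class moved more over days than lymphocytes of the same libraries did. Of the members, 1 of 6 in fibroblasts was called (0.584% of all genes in either direction), and none in columnar cells (0.0566%), blood endothelium (1.19%), monocytes or macrophages (2.83%) or neutrophils (1.56%). Unadjusted p under 0.05 was reached by 3 of the members' tests in those 4 classes, and with B cells alone as background 1 member each was called in monocytes or macrophages and in neutrophils. The fibroblast gene was Hp, whose slope was 1.46 ± 0.22 above that of lymphocytes (edgeR, adjusted p = 0.0019). Its own fibroblast slope was 0.02 ± 0.59, against -1.66 ± 0.66 in lymphocytes. The call was lost without day 18, at 1.33 (edgeR, adjusted p = 0.0675). The falls of Saa3 and Lcn2 in fibroblasts were not shown to differ from those of lymphocytes, at -0.21 ± 0.25 and 0.22 ± 0.57 beyond them (edgeR, adjusted p = 0.898 and 1).

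**Figure D4:**
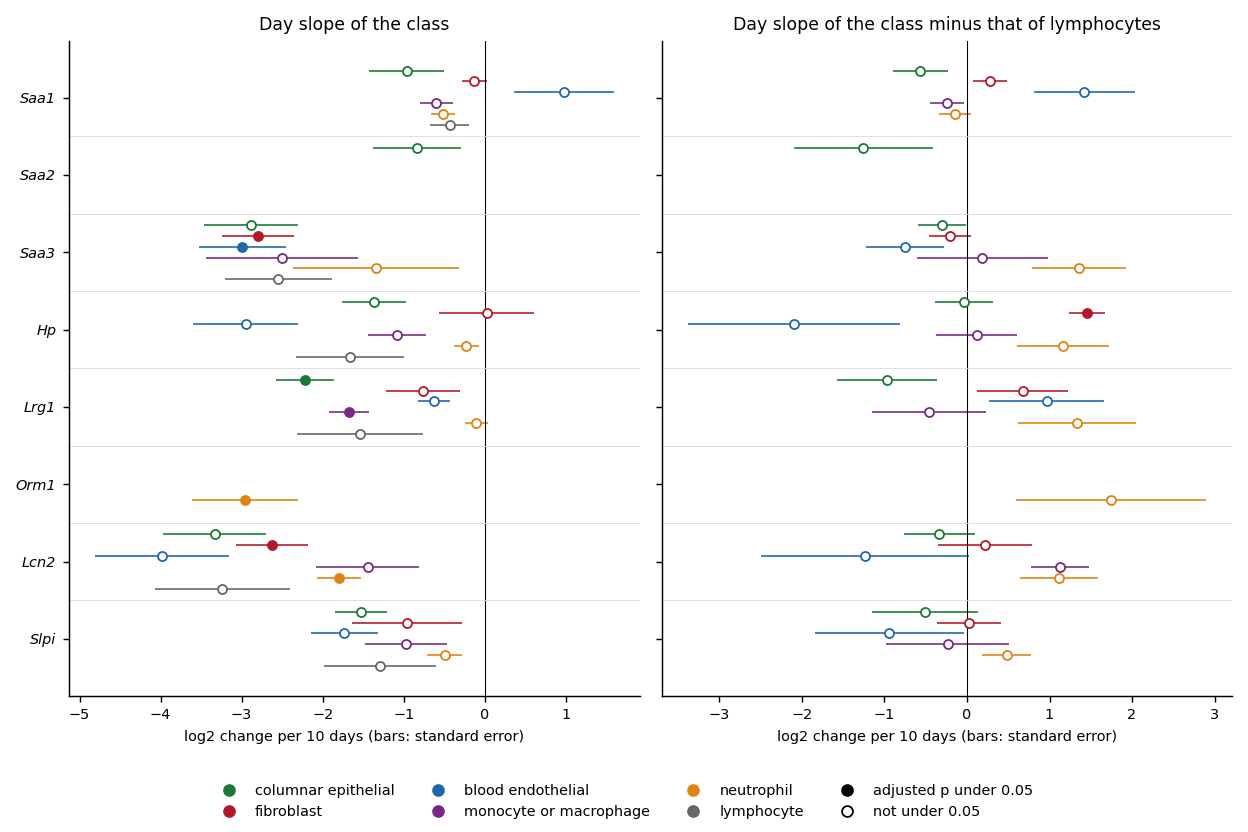
Day slope of each acute-phase gene in 6 classes over the 9 DSS libraries at the left, and less the slope of lymphocytes at the right (log2 per 10 days, points, with SE bars), filled where the adjusted p is under 0.05. Every filled point at the left is below 0, from -1.67 for Lrg1 of monocytes or macrophages to -2.99 for Saa3 of blood endothelium, and the filled point at the right is fibroblast Hp at 1.46.

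The genes around the members were read from 5 lists, and every call among them was a fall. Of the inducing cytokines, 3 of 7 tested fell in fibroblasts (background 2.65% as above): Il6 at -1.16 ± 0.14, Il11 at -3.33 ± 0.46 and Lif at -3.04 ± 0.29 per 10 days, all of the interleukin-6 family (edgeR, adjusted p = 0.000939, 0.0133 and 0.00147). Fibroblast Il6 was at 86.4 CPM in the uninjured library, 1573 CPM on day 6 and 488 CPM on day 23. In monocytes or macrophages, where 7.13% of all genes fell, 4 of 7 fell (Il1b at -0.43 ± 0.13, Il11 at -3.01 ± 0.49, Lif at -1.27 ± 0.26 and Osm at -0.38 ± 0.11). Columnar cells had 1 of 7 (Il11 at -3.17 ± 0.41, against 0.192% of all genes), lymphocytes 1 of 8 (Lif, against 0.804%), and neutrophils and blood endothelium 0 of 6 (2.03%) and 0 of 2 (0.424%).

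The same shares of all genes, 7.13% in monocytes or macrophages, 2.65% in fibroblasts, 2.03% in neutrophils and 0.804% in lymphocytes, stand behind the lists that follow. Of their receptors, 4 of 7 fell in monocytes or macrophages (Il1r1, Il6ra, Il17ra and Lifr) and 2 of 8 in fibroblasts (Il1r1 at -0.74 ± 0.13 and Il6st at -0.44 ± 0.09), with 0 of 8, 5, 6 and 5 in columnar cells, blood endothelium, neutrophils and lymphocytes. Of the transcription regulators, 4 of 8 fell in monocytes or macrophages (Cebpd, Nfkb1, Rela and Stat3), 3 of 8 in fibroblasts (Nfkb1, Nfkbia and Stat3 at -0.59 ± 0.11), 2 of 8 in neutrophils (Nfkb1 and Nfkbiz) and 2 of 8 in lymphocytes (Nfkbiz and Stat3), with 0 of 8 in columnar cells and in blood endothelium. Among other acute-phase and defence proteins, 4 of 9 fell in neutrophils (S100a8 at -1.21 ± 0.19, S100a9 at -0.90 ± 0.16, Serpina3n at -2.91 ± 0.42 and Mt2), 2 of 11 in fibroblasts (Cp at -1.12 ± 0.25, the copper carrier ceruloplasmin, and Mt2 at -1.32 ± 0.26), 1 of 11 in monocytes or macrophages (Ptx3 at -4.24 ± 0.52) and 1 of 8 in lymphocytes (Serpina3n), with 0 of 8 in columnar cells and 0 of 5 in blood endothelium. Of a list of receptors and neutrophil proteases, 4 of 6 fell in monocytes or macrophages (Fpr1, Fpr2, Prtn3 and Tlr2). In neutrophils 2 of 6 fell (Fpr1 and Fpr2) and in fibroblasts 1 of 6 (Fpr1), with 0 of 4, 0 of 1 and 0 of 3 in columnar cells, blood endothelium and lymphocytes. The formyl peptide receptors Fpr1 and Fpr2 are the neutrophil chemoattractant receptors, of which Fpr2 binds serum amyloid A. Median slopes of the cytokine list were -1.41, -1.36 and -0.46 in columnar cells, fibroblasts and monocytes or macrophages, against 0.00717, 0.0039 and 0.00585 over all genes. The lymphocyte median of that list was of like size, -1.39 against -0.00111 over all genes. Whether a list as a whole fell further in a class than in lymphocytes was not tested. Over all 5 lists and 6 classes the list medians lay between -2.69 and 0.13, and the medians of all genes between -0.0123 and 0.0172. The lists were chosen with earlier results of these libraries known.

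The genes most like each member over 117 class and library sums, among 12353 genes, are given by Pearson's r of log2(CPM + 10) as a description, since the sums share libraries, depth and droplet background. Saa1 was most like Fam3b (0.92), Lypd8 (0.92) and Itgb6 (0.92), of which Lypd8 is a secreted colonic epithelial protein that keeps bacteria from the surface. Saa2 was most like Cacna1b (0.81), Sectm1a (0.74) and Nat8f4 (0.74). Saa3 was most like Inhba (0.80), Ptgs2 (0.79) and Nrg1 (0.78), Inhba being a subunit of activin and Ptgs2 the inducible prostaglandin synthase. Hp was most like Clec4e (0.88), Arg2 (0.88) and Trem1 (0.87), Clec4e and Trem1 being innate receptors of myeloid cells. Lrg1 was most like Rnd1 (0.81), Rtp4 (0.80) and Arap3 (0.79). Lcn2 was most like G0s2 (0.80), Wfdc21 (0.80) and Retnlg (0.78), and Slpi was most like Wfdc17 (0.77), Clec4d (0.75) and Arg2 (0.75). Between members, r was 0.64 for Saa1 and Saa2, 0.78 for Lrg1 and Lcn2, 0.69 for Hp and Lcn2, 0.69 for Hp and Slpi and 0.68 for Saa3 and Hp, while Saa1 had -0.03 to 0.07 with the members other than Saa2.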

How the data were processed

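Single cells of the colonic mucosa were captured on the 10x Chromium and their transcript 3' ends sequenced. The authors deposited UMI counts per gene and cell, made with Cell Ranger 3.0.0 on mm10 per the submitters' processing notes, with a table of each cell's library, day, batch and cell type. The cell filters are not given in the sources used here; the shallowest cell of a library had 498 to 504 UMIs. Of 14 libraries and 68224 cells, 11 libraries and 55603 cells were used, and the cells of 3 libraries that matched no sample (12621) were not used here. Of 30406 rows, 597 named no gene (0.517% of counts) and were left out. Whether the authors removed doublets is not given, and no doublet caller was run; cells that carry neutrophil markers and the top 5% of cells by UMIs were left out as alternatives.

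The members and lists were chosen with earlier results of these data known. Named genes were the 8 members, the 3 genes most correlated with each member, and called genes of the 5 pathway lists. Types were joined into classes by name. Counts were summed per library and class with at least 20 cells. Day trends used edgeR 4.0.16 (quasi-likelihood, TMM, filterByExpr, R 4.3.3) with day and batch label as terms, for every class that 7 or more of the 9 DSS libraries held, with Benjamini-Hochberg adjustment over all genes tested and a threshold of 0.05. An interaction fit with the library as a block compared a class with lymphocytes. Levels were compared with lymphocytes by an exact two-sided sign-flip permutation test (scipy 1.17.1) of log2 ratios with a pseudocount of 1 count per 1000 cells. Poisson intervals are exact at 95%, and a count of 0 allows up to 3 counts. DESeq2 1.42.0 was an alternative test. On simulated data with known slopes in fibroblasts (10347 genes), the trend test recovered 33.7% of 98 genes with a slope of 1 and 99% of 99 with a slope of 2, with 5 false calls. The interaction test (11696 genes) recovered 2.02% of 99 and 42% of 100, with 1 false call. Every gene was simulated with the same dispersion and no batch effect, so these shares need not hold for the members. Nothing says that the pools were split into separate samples, so p-values measure the spread between single libraries.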

Additional observations from a re-analysis of the deposited data

Results flagged for a closer look

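Hp in fibroblasts differed from Hp in lymphocytes in its day slope, by 1.46 log2 per 10 days in a direct test of the difference (edgeR, adjusted p = 0.0019). Fibroblast Hp had a linear slope of 0.02 ± 0.59 (SE) over the 9 DSS libraries, against -1.66 ± 0.66 in lymphocytes. Its level was not constant, being highest at 3668 per 1000 cells on day 11 and lower on earlier and later days. Day 18 carried the call: without that library the difference was 1.33 (edgeR, adjusted p = 0.0675).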

How the results depend on the processing

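No paired analysis was possible because each group is 1 library, so that no replicate number could serve as a block between groups; the tests against lymphocytes pair classes within a library. Of the 36 pairs called above lymphocytes, 19 kept the call in all 19 alternatives, and leaving out 1 library at a time gave 33 to 36 calls. In CPM 22 were called, and 9 means turned sign: Hp to -0.12 in columnar and -0.46 in plasma cells, Lcn2 to -0.18 in columnar cells, Lrg1 to -0.083 in plasma cells, Saa1 to -0.50 in fibroblasts, -0.47 in monocytes or macrophages and -1.04 in plasma cells, and Saa3 to -0.18 in columnar and -0.88 in plasma cells. Lcn2 and Lrg1 of lymphatic endothelium, on 8 libraries, were at 6.43 and 7.01 with stricter cells on 6 libraries and at 7.06 and 7.39 without batch C on 5, where the calls were lost at the smallest p these numbers allow (exact sign-flip test, adjusted p = 0.0541 and 0.114). Of 53 pairs, 35 were above the uninjured library in every DSS library, 27 of 41 with stricter cells and 33 of 52 without the 5% of cells with the most UMIs; without those cells the Il10-/- library was above all DSS libraries in 0 pairs, not 2.

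Members with a day trend were 1 in columnar cells, 2 in fibroblasts, 1 in blood endothelium, 1 in monocytes or macrophages, 2 in neutrophils and 0 in lymphocytes. Leaving out 1 library at a time gave 0 to 3, 0 to 2, 1 to 3, 1 to 2, 0 to 2 and 0 to 4 in the same order, and for slopes beyond lymphocytes 0 to 0 in columnar cells, 0 to 1 in fibroblasts, 0 to 2 in blood endothelium, 0 to 1 in monocytes or macrophages and 0 to 3 in neutrophils. DESeq2 called 5 in columnar cells, 4 in blood endothelium, 4 in monocytes or macrophages and 3 in lymphocytes. With no filter on low counts edgeR called 4 in blood endothelium, 5 in neutrophils and 6 in lymphocytes. With no batch term it called 0 in columnar cells, 0 in blood endothelium and 1 in neutrophils. Without batch C it called 0 in columnar cells, 0 in fibroblasts, 2 in monocytes or macrophages, 1 in neutrophils and 2 in lymphocytes, and, beyond lymphocytes, 1 in columnar cells, 1 in monocytes or macrophages and 3 in neutrophils. With B cells alone as background it called 1 in monocytes or macrophages and 1 in neutrophils. Stricter cells gave 0 in columnar cells and 3 in blood endothelium, and leaving out the 5% of cells with the most UMIs gave 0 and 4. Without cells carrying neutrophil markers, an alternative chosen after seeing the data, 2 were called in columnar cells and 0 in blood endothelium. The causes were not tested. Orm1 and Saa2 rest on few counts in most classes, and the uninjured library held 91 lymphocytes.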

Other observations

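Proliferating T cells of day 11, 33 cells, held Lcn2 at 12000 counts per 1000 cells, against 2074 in other T cells and 237.5 in B cells of that library. Of those counts, 32.1% came from 1 cell, and 19.6% of the day 11 T cells carried neutrophil markers. The part of those cells in the value was not tested.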
